A study of Gallus gallus with 41 samples.

Results

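Single retinal neurons of the chick embryo were compared between embryonic day 6 (E6, 9 cells) and embryonic day 9 (E9, 5 cells), over all chicken probe sets of an Affymetrix array. The cells were chosen by the age and replicate number in their titles and are 14 of the 41 cells in the series, which spans 8 ages. The labels name no strain, genotype, treatment or embryo for either age, beyond dissociated retina as the tissue. Papain was used to dissociate the retinas, per the labels' protocols, and each cell was drawn into a glass pipette, lysed at once without culture, and amplified by oligo dT priming and many cycles of PCR. Because no embryo is named, the cells of an age count as 1 sample. There is therefore no test between the ages, and every SD below describes the spread over cells.

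In the chick retina, ganglion cells are the earliest neurons to be born, and the birth of amacrine, horizontal and photoreceptor cells overlaps with theirs. Around E6 many new neurons leave the cell cycle and extend axons toward the optic nerve. By E9 most ganglion cells have been produced, and the inner retina begins to mature toward forming synapses.

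Values are log2 MAS5 signals. Signals under the median of the whole table, log2 5.0, were set to that floor before means were taken. A gene was counted as detected in a cell when its signal reached the 80th percentile of that array. A probe set entered the comparison when it was detected in at least 3 of the 14 cells, which 13788 of 37695 chicken probe sets were. The other 23907 are not in the counts below. In place of a test, a probe set was called higher or lower at E9 when the group means differed by at least 4 log2 units, which is 16-fold. A gene was read from its brightest probe set over all cells of the series. No sequence or position is given, since no source used here names the genome build of the probe sets.

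Some arrays stood apart. E6 replicate 4 and E9 replicate 3 had nearly the same profile, with a Pearson correlation of 0.85 over all probe sets, while the other pairs of the 41 cells lay between 0.17 and 0.60. The labels do not say which age that profile belongs to, and both arrays were left out. E6 replicate 7 had an array median of log2 7.38 against 4.28 to 5.50 on the other E6 arrays, so the counts are also given without it. The title and time point of E6 replicate 1 say E6 while its source name says E5, and the title was followed.

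The E9 arrays carried more bright probe sets and a lower background. Between 3895 and 4588 probe sets reached log2 10 on the E9 arrays (median 4134), against 2573 to 3917 on the E6 arrays (median 3272). Background, read as the 95th percentile of the probe sets not designed on chicken genes, was 5.94 ± 0.27 at E9 (SD, n = 5) and 6.94 ± 1.16 at E6 (SD, n = 9), or 6.59 ± 0.53 without replicate 7 (n = 8). The detection threshold lay under this background on E6 replicates 2, 5, 6, 7 and 10, at 9.26 against 9.73 on replicate 7. On every E9 array it lay above it, so detection was laxer against background on those E6 arrays. The 3′ signal of ACTB, cytoskeletal actin, was above the 5′ signal by 1.42 ± 0.42 log2 units at E9 and 2.06 ± 1.6 at E6, or 1.6 ± 0.89 without replicate 7, so most of that gap came from 1 array. The number of bright probe sets and the background moved with age, and their part in the results below was not tested.

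**Figure D1:**
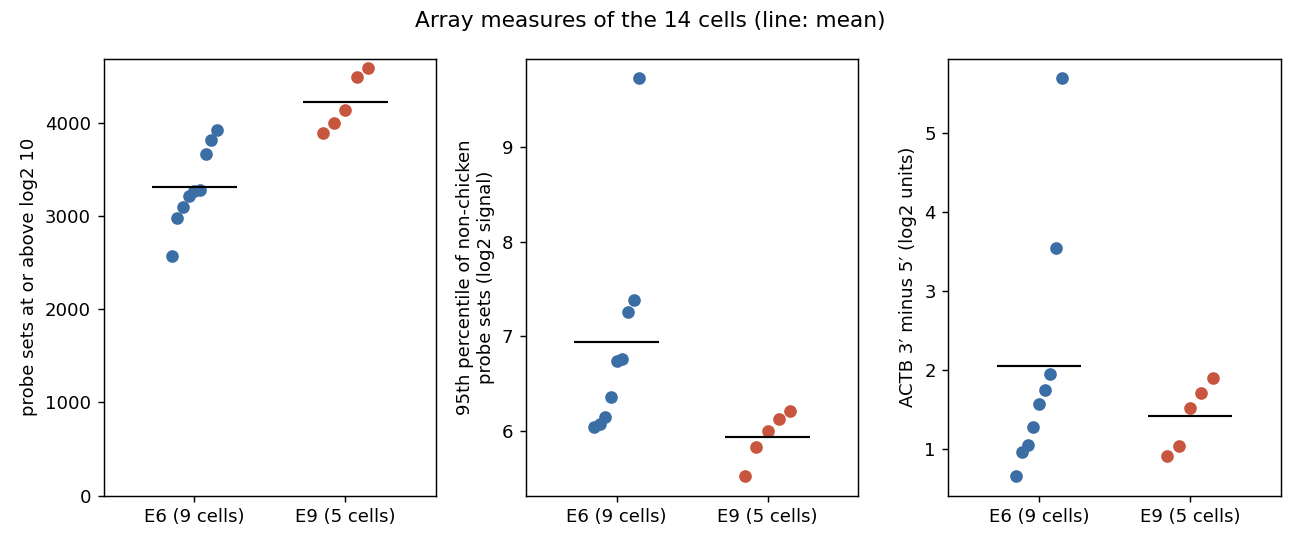
Each point is 1 cell and the line is the mean over cells, for 9 E6 and 5 E9 arrays: the number of probe sets at or above log2 10, the log2 background, and the 3′ minus 5′ log2 signal of ACTB. The E9 arrays hold 3895 to 4588 bright probe sets against 2573 to 3917, and E6 replicate 7 is the highest point for background at 9.73.

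At E9 more probe sets were called higher than lower. Of the 13788 compared, 207 were at least 16-fold higher, which is 1.5%, and 39 were at least 16-fold lower, which is 0.283%, or 246 (1.78%) in either direction. Without E6 replicate 7 these counts were 232 (1.68%) and 45 (0.326%), with 183 of the 207 and 33 of the 39 in both. The median difference over all compared probe sets was -0.12 log2 units, and 46.5% of them had a higher mean at E9. Scaling the arrays to a common 75th percentile moved that median to 0.30 and that share to 59.8%, and quantile normalization moved them to -0.03 and 49.1%. The median difference also varied with level, at -0.38 for a mean under 7 over the 14 cells, 0.20 from 7 to 9, 0.91 from 9 to 12 and -0.10 from 12 up. The share with a lower mean at E9 was 65.8%, 45.4%, 31.2% and 53.6% at these levels. Most of those called higher lay at a middle level: 123 had a mean from 7 to 9 and 74 a mean from 9 to 12. Of the 817 probe sets with a mean of 12 or more, 0 were called higher and 2 lower.

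The counts differed with the cells used. Against only the 3 E6 arrays with the most bright probe sets, replicates 1, 3 and 8, the E9 cells had 360 probe sets called higher and 180 lower, in an alternative chosen after seeing the data. The share called higher was then 66.67% of all calls, against 84.15% with all 9 E6 cells. The E6 group was also smaller, at 3 cells in place of 9, and the part of group size was not tested. Without E9 replicate 2 the number called lower was 61.

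**Figure D2:**
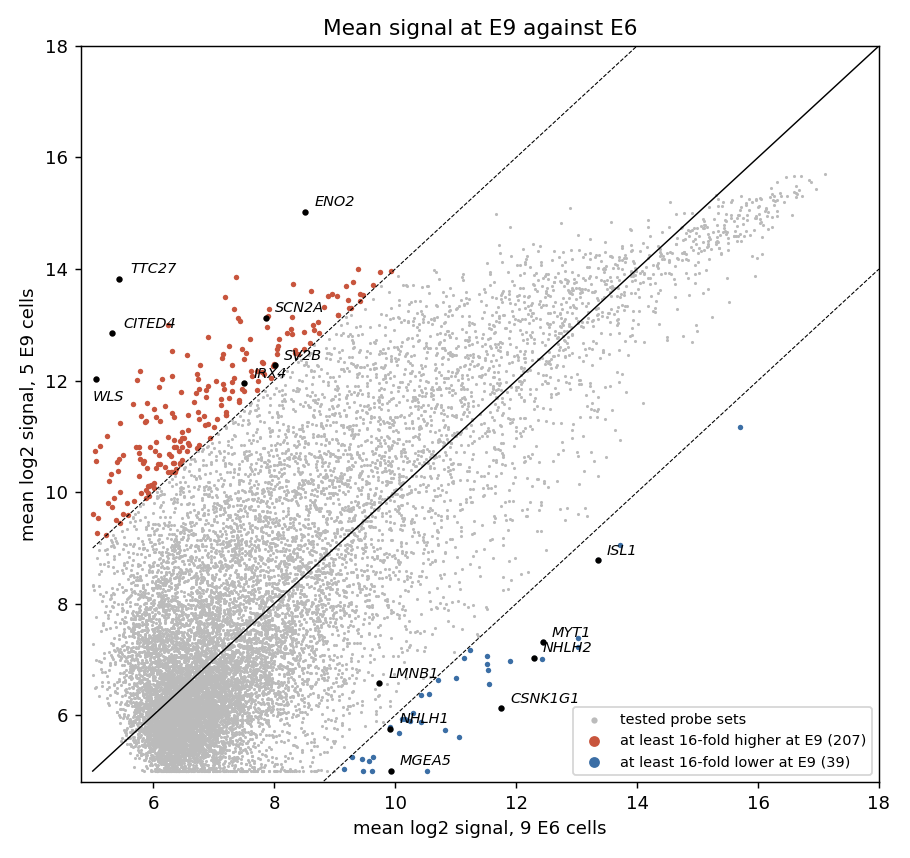
Each point is 1 compared probe set, with its mean log2 signal over 9 E6 cells on the x axis and over 5 E9 cells on the y axis. The solid line is equality and the dashed lines are 16-fold, with 207 probe sets above the upper one and 39 below the lower one.

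A stricter description asks whether the cells of the ages overlap at all. Every E9 cell lay above every E6 cell for 27 probe sets, 0.196% of those compared, and 21 of these were also called higher. Every E9 cell lay below every E6 cell for 34 probe sets, 0.247%, and 3 of these were also called lower. Of the 34, 17 had a mean of 12 or more and 12 a mean under 7.

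WLS, the membrane protein that carries Wnt proteins from the Golgi to the cell surface, was present at E9 and near the floor at E6. In the E9 cells its log2 signals were 12.70, 9.49, 10.56, 13.79 and 13.60 for replicates 1, 2, 4, 5 and 6, the order used throughout. In the E6 cells 8 of 9 were at the floor and the highest, replicate 7, read 5.51. The lowest E9 cell thus stood above the highest E6 cell. The means were 12.03 ± 1.91 (SD, n = 5) and 5.06 ± 0.17 (SD, n = 9), a difference of 6.97 log2 units. WLS was detected in 5 of 5 E9 cells (exact Clopper-Pearson 95% interval 47.8 to 100%) and 0 of 9 E6 cells (0 to 33.6%). Such intervals cover counting error only and make no allowance for genes having been picked for the difference.

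CITED4, a coactivator that binds the histone acetyltransferases CBP and p300, was split as cleanly. The E9 signals were 12.87, 13.65, 12.11, 13.46 and 12.16. The E6 signals had a median at the floor and a highest value of 6.84, in replicate 2. No E6 cell reached detection, and all 5 E9 cells did. The difference was 7.53, between means of 5.32 ± 0.65 (n = 9) and 12.85 ± 0.71 (n = 5).

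At other ages the pair of genes differed. CITED4 was detected in 2 of 5 E5 cells and 4 of 8 E14 cells, with means of 9.12 ± 5.02 and 8.93 ± 4.41. WLS was detected in 0 of 5 E5 cells and 6 of 8 E14 cells, with means of 5.33 ± 0.73 and 11.24 ± 4.34.

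LMNB1 and NHLH2 were higher at E6. LMNB1 encodes lamin B1, a filament protein of the inner nuclear membrane. Its E6 signals ran from 6.80 over a median of 9.72 to 13.32, and all 9 E6 cells detected it. In replicate 7 it read 9.72, just under that array's background of 9.73. In replicate 6 it read 6.80, near a background of 6.74. In the E9 cells it read 5.0, 12.09, 5.0, 5.78 and 5.0, so that replicate 2 alone was high and sat within the E6 range. The means of 9.74 ± 1.97 (n = 9) and 6.58 ± 3.10 (n = 5) differed by -3.16, which is short of the 16-fold size. Without E9 replicate 2 the difference was -4.54. A second LMNB1 probe set differed by -1.68.

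NHLH2 is a basic helix-loop-helix (bHLH) transcription factor of newborn neurons. All 9 E6 cells detected it, from 8.86 over a median of 12.40 to 15.51. The E9 cells read 5.0, 9.88, 5.0, 10.02 and 5.27. Replicates 2 and 5 stood above the lowest E6 cell, and the other 3 lay below every E6 cell. The difference was -5.26, between means of 12.29 ± 2.13 (n = 9) and 7.04 ± 2.66 (n = 5). With both of its probe sets averaged the difference was -3.17. Its means at other ages were 5.35 ± 0.62 at E3 (n = 6), 8.59 ± 3.45 at E5 (n = 5) and 6.19 ± 1.75 at E14 (n = 8).

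**Figure D3:**
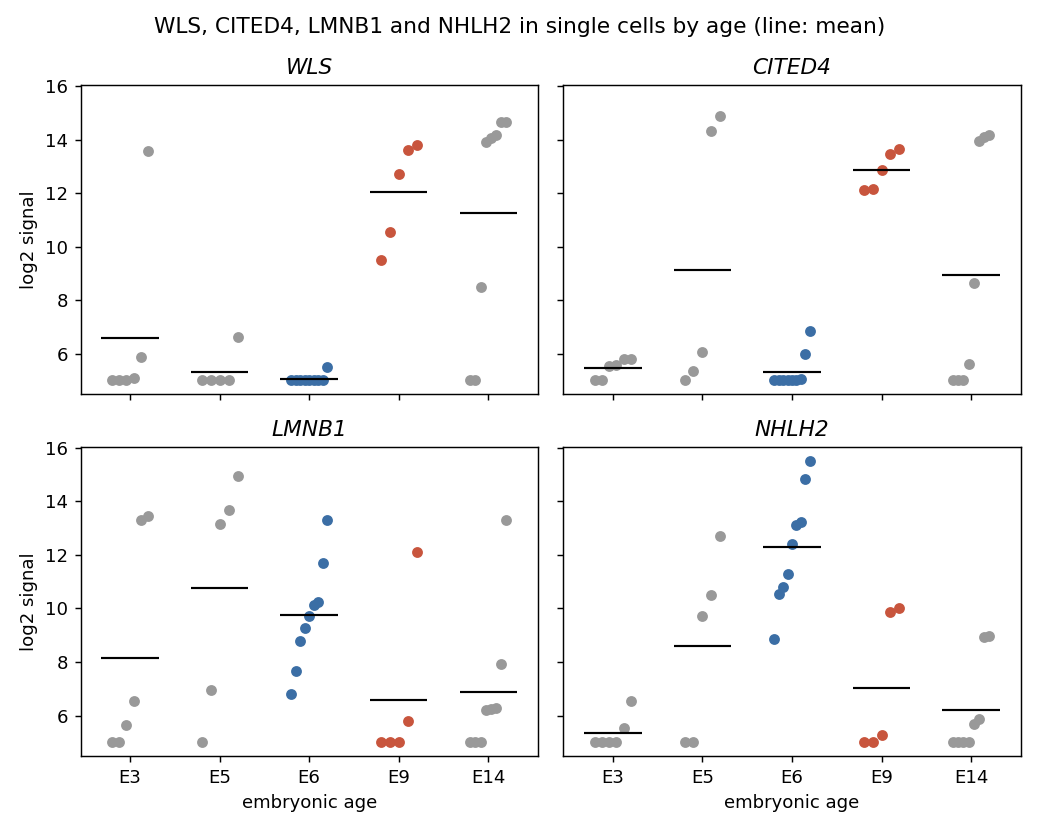
Log2 signal of WLS, CITED4, LMNB1 and NHLH2 in each cell at E3, E5, E6, E9 and E14, with a line at the mean; E6 is blue, E9 is red, and the pair with nearly the same profile is left out. WLS and CITED4 separate the 5 E9 cells from the 9 E6 cells, while LMNB1 overlaps through E9 replicate 2 and NHLH2 through E9 replicates 2 and 5.

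NHLH2 belongs to a list of neurogenic bHLH factors, their partners and Notch pathway genes. Of its 11 compared members, NHLH2 included, 0 were called higher and 2 lower, against 1.5% and 0.283% of all compared probe sets, and 2 had a higher mean at E9. The median difference of the list was -1.27, against -0.12 over all compared probe sets. That background was -0.38 for a mean under 7, 0.20 from 7 to 9 and 0.91 from 9 to 12. Without NHLH2 the list median was -1.27 as well, with 1 of 10 called lower. Against E6 replicates 1, 3 and 8 alone the median of all 11 was -0.15, and without E6 replicate 7 it was -0.81. The member called beside NHLH2 was NHLH1, its close relative. The E6 signals of NHLH1 ran from 5.0 over a median of 9.57 to 14.53, and its E9 signals were 5.92, 5.17, 5.0, 6.71 and 5.99. Of the 9 E6 cells, 8 stood above every E9 cell and replicate 3 was at the floor. The difference of -4.16 was -3.65 without E6 replicate 7, which is under 16-fold. ATOH7, the bHLH factor that gives progenitors the competence to form ganglion cells, was detected in 2 E6 and 0 E9 cells, too few to be compared.

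Some genes named as lower at E9 encode transcription factors. ISL1, a LIM homeodomain factor of ganglion, amacrine and bipolar cells, had E6 signals from 5.0 over a median of 14.29 to 16.50. At E9 it read 6.49, 15.06, 9.40, 7.40 and 5.56. Replicate 2 was as high as the E6 cells, and E6 replicate 10 was at the floor, so the ages overlapped. The difference was -4.57 with this probe set and -4.73 with the other probe set of ISL1, and it was -3.77 without E9 replicate 6.

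MYT1, a zinc finger factor of neuronal differentiation, had an E6 median of 12.96 and E9 signals of 6.24, 5.65, 5.0, 12.97 and 6.69, a difference of -5.13. Its only high E9 cell was replicate 5. A second MYT1 probe set differed by -0.71. BEND4, a BEN domain protein, had an E6 median of 13.91 and E9 signals of 5.0, 9.37, 5.0, 5.0 and 11.78, a difference of -5.79. KCTD1, a BTB domain protein, differed by -5.0, with an E6 median of 12.88 and a highest E9 signal of 9.05. For BEND4 and KCTD1 alike, 7 of 9 E6 cells stood above every E9 cell.

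CSNK1G1, a casein kinase, was the only named gene among those lower at E9 whose cells did not overlap. Its E6 signals ran from 7.44 over a median of 12.33 to 14.47, and its E9 signals were 6.87, 6.57, 5.0, 6.38 and 5.82. The lowest E6 cell, replicate 5, lay near that array's background of 7.26, while E9 replicate 1, at 6.87, had a background of 6.12. The lack of overlap is thus in raw signal and makes no allowance for background. The difference was -5.63 with this probe set and -4.25 with a second, while the other 3 differed by -1.79 to -0.50. MGEA5 encodes the O-GlcNAcase that removes the sugar O-GlcNAc from proteins, and all 5 E9 cells were at the floor for it. Its E6 median was 10.37 and 8 of 9 E6 cells detected it, so the floor limits the size of the difference, -4.92. OGT, which adds the same sugar, was detected in all 14 cells, with means of 14.96 ± 1.41 at E6 and 14.54 ± 0.20 at E9. Of 11 compared enzymes of O-GlcNAc and palmitate turnover, MGEA5 was the 1 called, against 0.283% of all compared probe sets called lower. The list does not hold ABHD17B, described next. Its median difference was -0.10, or 0.40 after quantile normalization and 0.32 after scaling to a common 75th percentile.

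PTN, the secreted growth factor pleiotrophin, had an E6 median of 12.74 and E9 signals of 6.82, 12.02, 5.0, 5.0 and 6.01, a difference of -4.92. The low E6 cell was replicate 2, at 5.19, and the high E9 cell was also replicate 2. METTL21C, a protein lysine methyltransferase, differed by -5.64, and MRPL57, a protein of the mitochondrial ribosome, by -5.44. ABHD17B, an enzyme that removes palmitate from proteins, differed by -4.55, and TRAM1L1, related to a translocation protein of the endoplasmic reticulum, by -4.37. TRAM1L1 was uneven at E6, from 5.0 to 16.67, and its difference was -3.55 without E6 replicate 5 and -3.76 without E6 replicate 9. That of ABHD17B was -3.95 without E6 replicate 9.

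**Figure D4:**
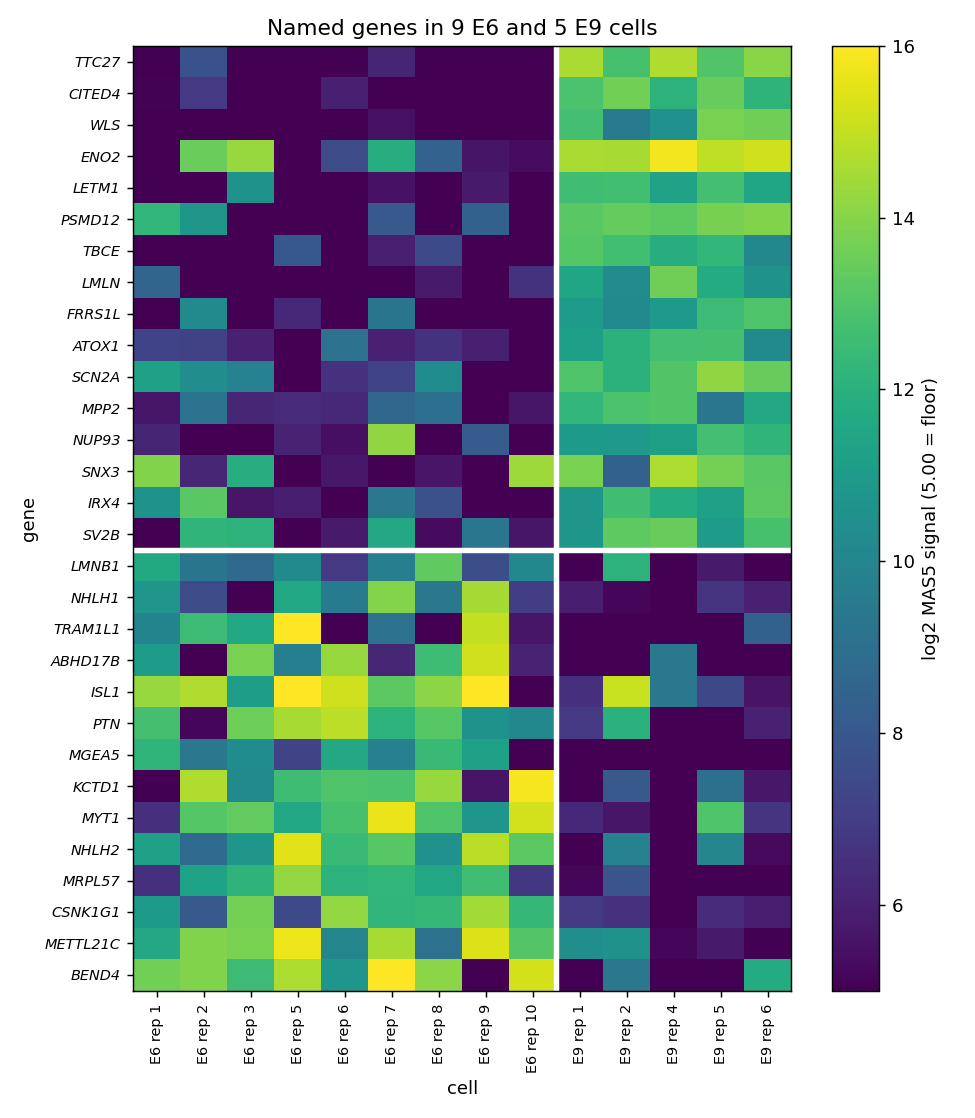
Log2 signal, from the floor of 5.0 upward on the colour scale, of the 30 named genes (rows) in 9 E6 and 5 E9 cells (columns). Genes higher at E9 are detected in all 5 E9 columns, with SNX3 at 8.42 and WLS at 9.49 in replicate 2 and MPP2 at 9.33 in replicate 5. Among genes lower at E9, replicate 2 keeps more bright genes than the other E9 cells. Genes whose cells did not overlap were named first.

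Genes named as higher at E9 were detected throughout the E9 cells. Each of the 12 was detected in 5 of 5 E9 cells, and an E6 cell detected between 0 and 6 of them. Of the 12 genes named as lower by the same rule, E6 cells detected 8 to 12. E9 cells detected 2 to 4 of those, apart from replicate 2 with 7. These 24 genes were chosen on the same values, so the counts only describe the cells. Whatever the size of the difference, the ages did not overlap for 27 compared probe sets higher at E9 (0.196%) and 34 lower (0.247%). Named first were genes past 16-fold, with and without E6 replicate 7, whose cells did not overlap. Of such genes 14 were higher at E9 and 1 was lower. The contrast between the higher and the lower genes therefore follows in part from the choice.

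Among genes of neuronal metabolism, ENO2 stood out. It encodes the enolase of neurons, a glycolytic enzyme, and read 14.58, 14.57, 15.83, 14.95 and 15.22 at E9. Its E6 signals were spread from 5.0 over a median of 7.49 to 14.29, and 5 of 9 E6 cells detected it. Every E9 cell was above every E6 cell, and the difference was 6.52. ENO1, the form found in most tissues, was detected in all 14 cells and had means of 17.11 ± 1.34 at E6 and 15.71 ± 0.51 at E9. The 8 brightest genes detected in all cells, ENO1 among them, all differed by -1.51 to -1.03. After quantile normalization these 8 differed by -0.26 to 0.24, so the lower ENO1 mean is not particular to ENO1. Of 15 compared genes of glycolysis and glucose or lactate transport, ENO2 was the 1 called, against 1.5% of all compared probe sets called higher. The median difference was -0.61, or 0.40 after quantile normalization and -0.08 after scaling to a common 75th percentile.

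Ion channel genes had a positive median difference. SCN2A encodes a pore-forming subunit of voltage-gated sodium channels. At E9 it read 12.96, 12.05, 13.02, 14.19 and 13.43, above a highest E6 value of 11.29 and an E6 median of 7.23. Its difference was 5.27 with this probe set and between -0.19 and 0.62 with its other 4 probe sets. Against E6 replicates 1, 3 and 8 alone it was 2.63. Of 16 compared ion channel genes, SCN2A was the 1 called higher, 0 were called lower and 10 had a higher mean at E9, against 1.5%, 0.283% and 46.5% of all compared probe sets. The median difference was 1.19, against -0.12 over all compared probe sets. That background was 0.20 for a mean from 7 to 9 and 0.91 for a mean from 9 to 12. At these levels 45.4% and 31.2% of compared probe sets had a lower mean at E9, so most had a higher one.

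Synaptic genes also had a positive median. Of 20 compared genes of the synaptic vesicle and of transmitter release, 1 was called higher, 0 were called lower and 13 had a higher mean at E9. A single call is near the 1.5% background, and 46.5% of all compared probe sets had a higher mean at E9. That share varied with level: 45.4% of those with a mean from 7 to 9 had a lower mean at E9. For a mean from 9 to 12 only 31.2% did, so most were higher there. The median difference was 1.2, against -0.12 over all compared probe sets and 0.91 over those with a mean from 9 to 12. The gene called was SV2B, a synaptic vesicle glycoprotein, with E9 signals of 10.81, 13.27, 13.45, 11.03 and 12.80. Its E6 cells ran from 5.0 over a median of 5.82 to 12.18, and 3 E9 cells stood above all E6 cells. The difference of 4.26 was between 3.88 and 3.99 when E6 replicate 1, 5, 6, 8 or 10 or E9 replicate 4 was left out singly.

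Transmitter receptor genes had a median difference of 1.45 over 13 compared. All compared probe sets had -0.12, those with a mean from 7 to 9 had 0.20 and those from 9 to 12 had 0.91. Of the 13 genes, 9 had a higher mean at E9 and 0 were called in either direction. Over all compared probe sets these shares were 46.5% and 1.78%. A lower mean at E9 was held by 45.4% of those with a mean from 7 to 9 and by 31.2% of those from 9 to 12. The brightest was CHRNB3, a nicotinic acetylcholine receptor subunit, at 12.71 ± 3.05 and 14.22 ± 0.63 (E6 then E9, here and below). GRIA2, an AMPA-type glutamate receptor subunit, had 12.25 ± 2.87 and 12.77 ± 0.88. GRIK3, a kainate receptor subunit, had 10.48 ± 4.22 and 13.16 ± 0.30. Against E6 replicates 1, 3 and 8 alone, the E6 arrays with the most bright probe sets, the medians were 0.09 for transmitter receptors, 0.23 for synaptic genes and 0.49 for ion channels. The ion channel median was 0.55 without E9 replicate 6 and 0.11 with all probe sets of a gene averaged, and the receptor median was 0.68 without E9 replicate 2.

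Further genes named as higher at E9 had varied functions. TTC27, a tetratricopeptide repeat protein, had the largest difference among the named genes, 8.39, with E9 signals of 14.60, 12.78, 14.70, 13.00 and 14.06 and a highest E6 signal of 7.76. FRRS1L, a protein that helps assemble AMPA receptors, differed by 5.34, and MPP2, a membrane scaffold protein, by 4.95. TBCE, a chaperone that folds alpha-tubulin, differed by 6.29 in one probe set and 5.78 in a second. LETM1, a protein of the inner mitochondrial membrane, differed by 6.4, while a second LETM1 probe set, detected in 1 of the 14 cells, differed by -2.13. PSMD12, a proteasome subunit, differed by 6.32, LMLN, a metallopeptidase, by 5.91, and ATOX1, a copper chaperone, by 5.34. ATOX1 was also detected in 6 of 6 E3 and 5 of 5 E5 cells, at means of 14.90 and 13.95, above its E9 mean of 11.79. PSMD12 was detected in 5 of 6 E3 and 2 of 5 E5 cells, and LMLN in 0 of 6 and 1 of 5.

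Probe sets of a gene often differed in their size of difference. The other probe sets of FRRS1L, MPP2, LETM1, LMLN and SV2B were each detected in fewer than 3 of the 14 cells. So were some of those of TBCE, SCN2A, IRX4, CSNK1G1, PTN, TRAM1L1 and NHLH1. An average with such a probe set can be small because that probe set gave little signal at either age. Averaged over all probe sets, the differences were 1.64 for FRRS1L, 2.22 for MPP2, 2.96 for TBCE, 2.13 for LETM1, 2.66 for LMLN and 1.19 for SCN2A, each under 16-fold. The averages were 1.87 for SV2B and 3.32 for IRX4. For genes lower at E9 they were -2.53 for CSNK1G1, -2.92 for MYT1, -2.76 for PTN, -3.92 for ABHD17B, -2.23 for TRAM1L1 and -1.98 for NHLH1. Where the probe sets lie on each transcript was not examined.

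Within the Wnt pathway, WLS and SNX3 were the members called. Of 23 compared genes of Wnt secretion, reception and signalling, 2 were called higher, 0 were called lower and 8 had a higher mean at E9, against 1.5%, 0.283% and 46.5% of all compared probe sets. One of the calls is WLS, a marker chosen for its difference. The median difference was -0.65, while the mean was 0.29. SNX3, a sorting nexin known from fly and worm to return WLS from endosomes, read 13.79, 8.42, 14.67, 13.69 and 13.19 at E9. Its E6 median was 5.70, but replicates 1, 3 and 10 lay within the E9 range, so the ages overlapped. The difference was 4.67 and that of a second SNX3 probe set 3.87. Against E6 replicates 1, 3 and 8 alone it was 2.27. SNX3 was also detected in 4 of 6 E3 and 5 of 5 E5 cells, at means of 9.62 and 12.85, against 12.75 at E9. VPS35, a retromer subunit in the same route, had means of 9.25 ± 3.50 and 8.0 ± 2.81.

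Among CITED coactivators and partners of p300, CITED4 was the 1 called of 5 compared genes, against 1.5% of all compared probe sets called higher. CITED4 is a marker chosen for its difference. The median difference of the list was 1.81, or 0.62 without E9 replicate 4. HIF1A, a hypoxia-regulated factor that also binds p300, had means of 8.56 ± 4.17 and 11.25 ± 2.61. EP300 (p300) had 6.31 ± 0.69 and 5.62 ± 0.44, and CREBBP (CBP) had 7.13 ± 0.87 and 6.87 ± 1.16. The nuclear envelope list, which includes LMNB1, had 1 of 11 compared genes called higher and 0 lower, against 1.5% and 0.283%. That gene was NUP93, a scaffold protein of the nuclear pore, at 10.97, 10.91, 11.24, 12.73 and 12.20 in the E9 cells and a median of 5.45 at E6, a difference of 4.94. E6 replicate 7 alone exceeded the E9 cells, at 14.17, and averaged over its 4 probe sets the difference was 1.06. LMNB2, the other B-type lamin, had means of 7.80 ± 2.77 and 8.82 ± 2.22.

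**Figure D5:**
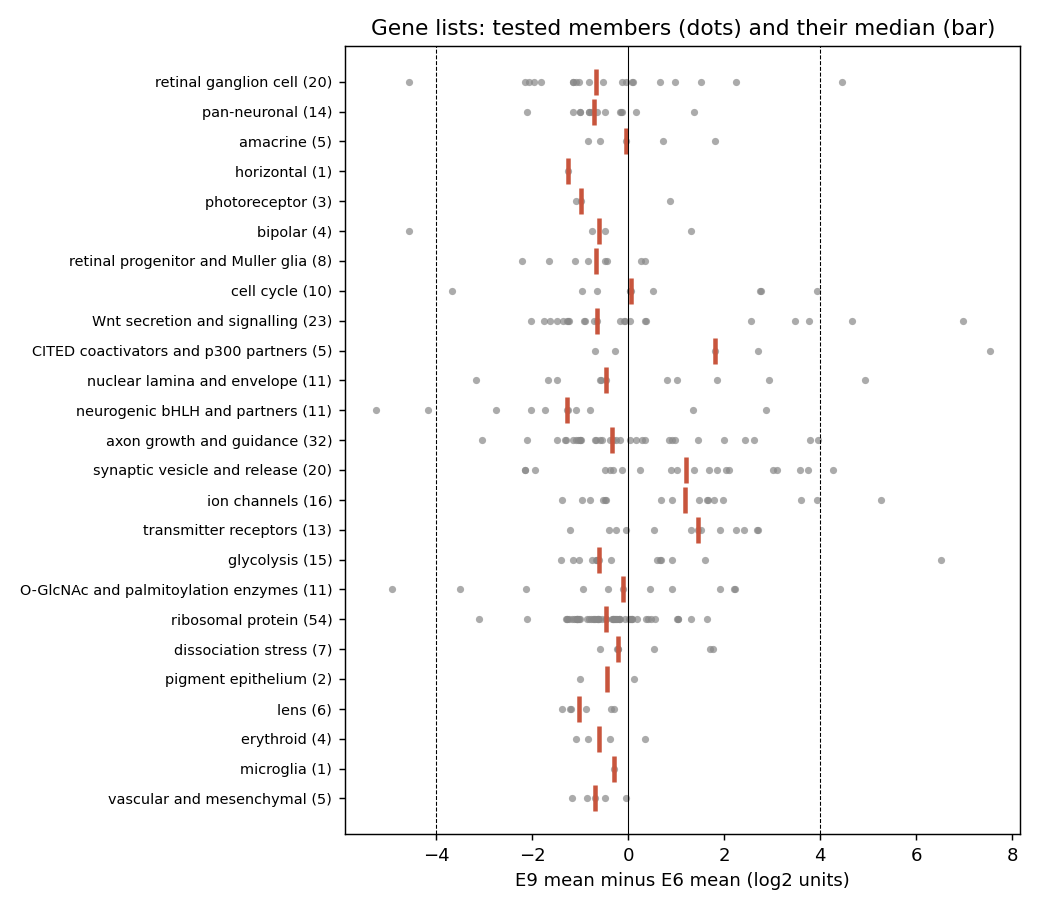
Each grey dot is the E9 minus E6 difference of mean log2 signal for 1 compared member of a gene list, the red bar is the list's median, the number of compared members is in brackets, and dashed lines mark 16-fold. The list of CITED coactivators and p300 partners, CITED4 included, has the highest median, 1.81 over 5 compared members. Transmitter receptors, synaptic genes and ion channels have medians of 1.45, 1.2 and 1.19, and the neurogenic list, NHLH2 included, has -1.27.

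The cells of both ages carried the genes of neurons. Of 16 matched pan-neuronal genes, each cell detected 12 to 14. STMN2, a microtubule regulator of growing axons, had means of 16.63 ± 1.06 and 15.49 ± 0.46. GPM6A, a neuronal membrane glycoprotein, was detected in all 14 cells, as were DCX and TUBB3 of the young neuronal cytoskeleton. GAP43, a growth cone protein, was detected in 0 of 14. Of the list 14 were compared and 0 were called in either direction, against 1.78% of all compared probe sets. The median difference was -0.71, or 0.04 after quantile normalization and -0.18 after scaling to a common 75th percentile, so its sign differed with the scaling.

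Several ganglion cell genes were found in every cell, while some defining ones were rarely detected. Of 26 matched genes of that list, E6 cells detected 11 to 17 and E9 cells 12 to 15. EBF3, a transcription factor of ganglion cells, was detected in every cell, with means of 15.95 ± 0.73 and 13.88 ± 0.96. POU4F2, the Brn3 factor that defines ganglion cells, was detected in 2 of 9 and 1 of 5 cells, and SLC17A6, the vesicular glutamate transporter, in 2 of 9 and 0 of 5. Of 20 compared, IRX4 was called higher and ISL1 lower, against 1.5% and 0.283% of all compared probe sets. The median difference was -0.68, or -0.06 after quantile normalization and -0.15 after scaling to a common 75th percentile, and -0.27 without E9 replicate 2. IRX4, an Iroquois homeobox factor, read 10.80, 12.62, 11.83, 11.29 and 13.25 at E9 against an E6 median of 5.93. E6 replicate 2 reached 13.19, within the E9 range, and the difference was 4.45, with 5.93 in a second probe set.

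GAD1, GAD2, SLC32A1 and SLC6A9, which define inhibitory amacrine transmission, were detected in 0 of 9 and 0 of 5 cells. PAX6 and CALB2 (calretinin), found in amacrine and ganglion cells, were detected in all 14. Over the amacrine list of 13 matched genes, the mean level per cell ran from 6.54 to 8.32 at E6 and 6.35 to 7.90 at E9. Of 5 horizontal cell genes, 0 to 2 were detected per E6 cell and 0 to 1 per E9 cell, with PROX1 and CALB1 in none. Photoreceptor genes were detected at 1 to 4 of 12 per E6 cell and 0 to 2 per E9 cell, and OTX2, a key photoreceptor factor, in 2 E6 and 0 E9 cells. The detection threshold lay under the array background on some E6 arrays but on none of the E9 arrays, and its part in these counts was not tested. Of 5 bipolar genes, E6 cells detected 2 to 3 and E9 cells 1 to 3, counting ISL1. The 5 amacrine, 1 horizontal and 3 photoreceptor genes compared held 0 calls, against 1.78% of all compared probe sets. Of 4 compared bipolar genes 1 was called lower, ISL1, against 0.283%.

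Some cell cycle genes were detected at both ages, but the mitotic genes MKI67, BUB1B, PLK1 and CENPF in none of the 14 cells. Of 30 matched genes, E6 cells detected 3 to 9 and E9 cells 4 to 8. The list had 10 compared, 0 called, against 1.78% of all compared probe sets, and a median difference of 0.05. KIF20A, a mitotic kinesin, had the highest mean of the list and differed by 3.94, just short of 16-fold. RRM1, a subunit of ribonucleotide reductase, differed by -3.66. PCNA, the sliding clamp of DNA replication, differed by 0.03 and CCNA2, cyclin A2, by -0.66.

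Of 17 progenitor and Müller glia genes, E6 cells detected 3 to 7 and E9 cells 4 to 6. Of 8 compared 0 were called, against 1.78% of all compared probe sets. The median difference was -0.67, or -0.33 after scaling to a common 75th percentile. The brightest beside PAX6 was VIM, the intermediate filament vimentin, at 15.49 ± 0.62 and 13.84 ± 0.59. FABP7, a fatty acid binding protein of radial glia, had 8.56 ± 3.51 and 6.34 ± 2.99.

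Genes of lens, blood, vessels, microglia and pigment epithelium gave 0 calls, with 6, 4, 5, 1 and 2 compared. Of all compared probe sets 1.78% were called, so 0 calls among so few genes says little. The mean level per cell of the lens list ran from 5.90 to 8.27 at E6 and 5.41 to 6.23 at E9. Of the 6 compared lens genes 0 had a higher mean at E9, against 46.5% of all compared probe sets. Most of the lens list was near the floor, and 65.8% of compared probe sets with a mean under 7 had a lower mean at E9. CRYBA4, a beta crystallin, was its brightest member, at 11.64 ± 2.44 and 11.29 ± 2.99. Vascular and mesenchymal genes ran from 5.58 to 7.44 at E6 and 5.68 to 6.26 at E9. Microglia genes ran from 5.15 to 6.90 and 5.08 to 5.85, with C1QA, C1QB, C1QC and PTPRC detected in 0 of 14. Pigment epithelium genes ran from 5.22 to 6.78 and 5.16 to 5.52, and erythroid genes from 6.41 to 7.42 and 5.42 to 7.61. The array background was also higher at E6, and its part in these levels was not tested.

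The remaining lists gave 0 calls, against 1.78% of all compared probe sets. Of 32 compared genes of axon growth and guidance 13 had a higher mean at E9, against 46.5% of all compared probe sets. The median difference was -0.35, or -0.21 after quantile normalization and -0.08 after scaling to a common 75th percentile. ROBO2, a receptor for the repellent Slit, was detected in all 14 cells at 14.05 ± 2.61 and 14.33 ± 0.55. Of 54 compared ribosomal protein genes 15 had a higher mean at E9, against the same 46.5%. The median was -0.46, or 0.22 after quantile normalization and 0.07 after scaling to a common 75th percentile. RPS6, the brightest of them, had 16.65 ± 1.03 and 15.35 ± 0.26. Dissociation stress genes had 0 of 7 called and a median of -0.20, or 0.65 after quantile normalization and 0.31 after scaling to a common 75th percentile. The chaperone HSP90AA1 had 15.42 ± 0.38 and 15.20 ± 0.36, and the early response genes FOS and ATF3 were detected in 0 of 14 cells.

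Many genes were shared by all cells of both ages. In all, 420 genes were detected in all 14 cells. The 8 brightest were ENO1, the ubiquitin ligase ARIH1, the elongation factor EEF1A1, ACTB, GAPDH, the microtubule regulators STMN1 and STMN2, and MAP6, which stabilises microtubules. Their means differed by -1.51 to -1.03, and by -1.22 to -0.78 without E6 replicate 7. After scaling to a common 75th percentile they differed by -0.98 to -0.50, and after quantile normalization by -0.26 to 0.24, so the lower means at E9 did not hold under that scaling. Their SD over cells was 0.98 to 1.47 at E6 and 0.34 to 0.59 at E9.

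E9 cells correlated more with each other than E6 cells did. Over the compared probe sets, the Pearson correlation between 2 E9 cells was 0.46 to 0.51 (median 0.49, 10 pairs). Between 2 E6 cells it was 0.28 to 0.47 (median 0.38, 36 pairs), or 0.32 to 0.47 (median 0.39, 28 pairs) without replicate 7. Between an E6 and an E9 cell it was 0.26 to 0.48 (median 0.40, 45 pairs), or 0.33 to 0.48 (median 0.42, 40 pairs) without replicate 7. By these medians, 2 E6 cells correlated no more than an E6 and an E9 cell did. These pairs share cells, and the part of the larger number of bright probe sets at E9 was not tested.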

How the data were processed

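Single chick retinal cells were measured on Affymetrix chicken arrays, 1 cell to an array. The table the authors deposited holds log2 signals of 38535 probe sets in 41 cells. MAS5 is the tool in the submitters' processing notes, and no source used here states its version. Oligo dT priming and many PCR cycles favour 3′ ends and widen differences in yield, so a low signal does not show absence. Each array had a trimmed mean linear signal of 500 to 500.2, so arrays were not rescaled.

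The 96 control and 744 non-chicken probe sets were left out, the latter serving as background. Probe sets were named through the platform annotation: 27178 had 1 symbol, 177 several and 11180 none, and 26863 matched RefSeq genes of GRCg7b by gene ID. Values were floored at log2 5.0, and means, SDs and exact Clopper-Pearson intervals were computed with Python 3.11.15, pandas 2.3.3, numpy 2.4.6 and scipy 1.17.1. The code was tested on simulated data. No p-value was computed, and a fixed size of 16-fold took the place of a test.

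The members and lists were chosen with earlier results of these data known. Named were the 4 markers; in each direction 12 genes past 16-fold with and without E6 replicate 7, those whose cells did not overlap first; from each of 25 lists the members past 16-fold or else up to 4 of the brightest; and the 8 brightest genes detected in all 14 cells. Cell type markers and, after their values were seen, some partners of named genes (OGT, VPS35, HIF1A, EP300, CREBBP, LMNB2) were added. Alternatives were the floor, scaling, filter, size, medians, averaged probe sets, each cell left out and the pair put back, and, chosen after seeing the data, subtraction of the median difference and 3 E6 cells alone.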

Additional observations from a re-analysis of the deposited data

Results flagged for a closer look

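In groups of 5 or 9 cells, 17 of 70 sets of values held a cell that stood far from the rest, by the gap to its nearest neighbour over the whole range. Chance alone flags about 1 set in 20, and values tied at the floor of 5.0 are flagged as soon as 1 cell rises clear of it. Among E6 cells, WLS read 5.51 in replicate 7, TTC27 7.76 in replicate 2, LETM1 10.59 in replicate 3, LMLN 8.6 in replicate 1 and NUP93 14.17 in replicate 7. PTN was low at 5.19 in E6 replicate 2 and ISL1 at 5.0 in E6 replicate 10. E9 replicate 2 was high for LMNB1 at 12.09, MRPL57 at 7.89 and PTN at 12.02, and low for SNX3 at 8.42. Other high E9 cells were replicate 5 for MYT1 at 12.97, replicate 4 for ABHD17B at 9.40 and replicate 6 for TRAM1L1 at 8.43. Of the array measures, E6 replicate 7 had a median of 7.38 and a background of 9.73, and E9 replicate 4 a 3′ minus 5′ difference of GAPDH of 1.05.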

How the results depend on the processing

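Of the differences of the 30 named genes, 0 changed direction under the alternatives run. All but LMNB1 were past 16-fold on the same values, so a reversal was unlikely from the start. The counts of probe sets, 207 higher and 39 lower, moved most. They were 489 and 155 with no floor, 384 and 87 with the floor at the 25th percentile, 48 and 11 with the floor at log2 7, 1251 and 203 from medians over cells, 682 and 172 at 8-fold, 57 and 9 at 32-fold, and 103 and 19 with the pair that shares nearly one profile put back. Scaling to a common 75th percentile gave 386 higher and 26 lower (93.69% of calls higher, against 84.15%). Against E6 replicates 1, 3 and 8 alone, chosen after seeing the data, the counts were 360 and 180. Leaving out each cell in turn gave 202 to 293 higher and 36 to 61 lower, with 61 without E9 replicate 2. For WLS the difference was 9.20 with no floor, 8.32 with the lower floor and 5.03 with the higher one. For CITED4 it was 8.81, 8.63 and 5.85, and 6.18 with the pair put back. Leaving out each cell gave 6.53 to 7.60 for WLS, 7.33 to 7.72 for CITED4, -4.54 to -2.71 for LMNB1 and -6.00 to -4.75 for NHLH2. The floor, the size and the number of cells enter the counts by construction, and other causes were not tested.

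Over the 30 named genes, 695 of 720 alternatives moved the difference by less than 1 SD over cells, 25 by more, and 0 reversed it. In 78 the difference was under 16-fold, 20 of them for LMNB1, which was already under it. Most of these genes were named for their size on the same values, so the absence of reversals is no test of them. Over the 25 list medians, 540 of 600 alternatives moved by less than that and 60 by more. Leaving out single cells took some small list medians across 0, as for amacrine genes (-0.44 to 0.78), cell cycle (-0.14 to 0.96), nuclear envelope (-0.48 to 0.63), O-GlcNAc and palmitate enzymes (-0.45 to 0.37) and dissociation stress (-0.43 to 1.02). Quantile normalization or scaling to a common 75th percentile also took the pan-neuronal, glycolysis, ribosomal, nuclear envelope, O-GlcNAc, stress, amacrine and microglia medians above 0 under at least 1 of them. Leaving out single cells kept neurogenic genes at -1.47 to -0.81, synaptic genes at 0.99 to 1.48, ion channels at 0.55 to 1.28 and transmitter receptors at 0.68 to 1.98. No paired analysis was possible because no result comes from a test, and replicate numbers only name cells. Arrays give no counts, so the number of cells and the background limit precision.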

Other observations

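Several genes of axon guidance and membrane excitability lay just under the 16-fold size, and are named here after their values were seen. Over all 13788 compared probe sets, 682 were at least 8-fold higher at E9 and 172 at least 8-fold lower. In the whole list of axon growth and guidance, 13 of 32 compared genes had a higher mean at E9 and the median difference was -0.35. EPHB2, an ephrin receptor, had means of 8.22 ± 4.29 at E6 and 12.17 ± 1.28 at E9 (SD over 9 and 5 cells), a difference of 3.96. NFASC, the cell adhesion molecule neurofascin, differed by 3.79. SCN8A, a sodium channel subunit, differed by 3.93 and KCNC1, a fast potassium channel, by 3.59. STX1A, a syntaxin of the release machinery, differed by 3.75, and SNCB, beta-synuclein, by 3.57. In the other direction CXCR4, the receptor for the chemokine CXCL12, was found in 5 of the 9 cells at E6, in 0 of the 5 at E9, and differed by -3.04. LYPLA1, an enzyme that removes palmitate from proteins, differed by -3.50.

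The pair of arrays with nearly the same profile was in no comparison. WLS read 11.63 on the array titled E6 replicate 4 and 12.59 on that titled E9 replicate 3, and CITED4 read 5.80 and 5.0. ENO2 read 14.13 and 13.78, ISL1 5.96 and 6.11, NHLH2 7.0 and 5.49, and LMNB1 was at the floor on both. They detected 9 and 9 of the 12 genes named as higher at E9, and 7 and 6 of the 12 named as lower.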
